A study of Mus musculus with 24 samples.

Results

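The genes *Gxylt2*, *Plscr4*, *Armcx2* and *Rgs7* of mouse epididymal white adipose tissue (eWAT) were examined across diet and genotype. They were chosen by their p-values between diets in mice lacking laminin alpha 4 in adipocytes, where they held ranks 1, 2, 3 and 5, and they are 4 of 16730 genes in the deposited table, of which 15020 were expressed highly enough to be tested. All 4 members passed that filter. Values from that contrast, and from every contrast that uses the same mice, are therefore given for the members as a description without a test. The members were tested between diets in control mice, whose difference between diets did not enter the choice. They were also tested for correlations of the spread within groups, from which group means were removed. The fit shared 1 estimate of each gene's spread among all 24 libraries, so a choice by low p favours genes of small spread. Intervals, p-values and correlations of the members are therefore not wholly free of the choice. Other genes were tested in both diet contrasts.

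The study asked how deleting *Lama4*, the gene of a basement membrane laminin chain, from adipocytes alters eWAT on a normal or an obesogenic diet. Male littermates of 2 genotypes were used: *Lama4* fl/fl mice, in which exon 3 is flanked by loxP sites, and *Lama4* AKO mice, which carry the same floxed allele together with an adiponectin-Cre transgene. Each genotype received breeder chow (LabDiet 5015) or a high-fat diet (HFD, 45% fat) for 20 weeks, and tissue was taken at 24 to 26 weeks of age. Each of the 4 groups held 6 mice with 1 library per mouse, sequenced from the 3′ end of transcripts. The fl/fl line came from C57BL/6N embryonic stem cells bred onto C57BL/6J, adiponectin-Cre acts in adipocytes, and the libraries were made from whole tissue, which also holds stromal, vascular and immune cells.

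Libraries held 5579590 to 18764516 counts. All 7 adipocyte markers were measured and passed the filter, whereas of 6 markers of the epididymal epithelium 2 were in the table and 0 passed. *Lama4* itself was not reduced by the AKO label in chow-fed mice, at 6.69 ± 0.40 log2 CPM (log2 of counts scaled to library size, SD, n = 6) against 6.46 ± 0.76 in fl/fl, and was 5.61 ± 0.47 against 6.19 ± 0.82 on HFD. Its genotype difference on chow was 0.11 on the log2 scale (SE 0.343, edgeR adjusted p = 0.980). Because reads come from the 3′ end and the deletion is of exon 3, these counts need not report the deletion, and genotype below is the label. By quantitative PCR the paper reported a knockdown of *Lama4* in eWAT of chow-fed AKO mice against controls. The first principal component carried 45.8% of the variance and did not follow the groups alone: HFD-fed fl/fl libraries lay from -76.1 to 73.5, chow-fed fl/fl libraries from -91.8 to 46.8, chow-fed AKO libraries from -74.8 to 22.1 and HFD-fed AKO libraries from 0.85 to 61.5. The libraries of fl/fl HFD mice 3, 4 and 6 (-9.88, -76.1 and -60.4) lay on the side of most chow-fed mice, and those of fl/fl chow mouse 3 (46.8) and AKO chow mouse 5 (22.1) on the side of most HFD-fed mice. An earlier analysis of these data inferred that the study set these 5 aside. Leaving them out enlarges differences between diets by construction of that choice. Values are therefore given with all 24 libraries and, for part of the results, with the remaining 19. Counts of pathway genes and neighbours without these 5 libraries are given in the closing section.

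The 4 genes are known for different functions. *Gxylt2* encodes a glucoside xylosyltransferase that adds xylose to O-linked glucose on the epidermal growth factor-like repeats of Notch receptors, a modification that tunes how these receptors respond to their ligands. *Plscr4* belongs to the phospholipid scramblases, a family linked to the movement of lipids between the leaflets of the plasma membrane, and *Armcx2* to a cluster of X-linked armadillo repeat genes whose studied members act at mitochondria. *Rgs7* is a regulator of G protein signalling of the R7 group, known mainly from neurons, which speeds the shut-off of Gi and Go alpha subunits in complex with *Gnb5* and a membrane anchor such as *Rgs7bp*.

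The promoters are shown because they are a property that the choice of genes did not use. RefSeq sequence (GRCm38.p6) was available for 4 of 4 genes and covers 250 bases before and 50 bases from the transcription start, written on the coding strand at chr6:100704484-100704783 (*Gxylt2*, plus strand), chr9:92457128-92457427 (*Plscr4*, plus strand), chrX:134809172-134809471 (*Armcx2*, minus strand) and chr1:175492496-175492795 (*Rgs7*, minus strand). Capitals mark matches to 6 motifs searched on both strands: the CCAAT box recognised by NF-Y, the box GGGCGG recognised by Sp1, the promoter element TATAAA, the E-box written as CACGTG, the core of RBPJ sites written as TGGGAA, and the site of AP-1 factors written as TGACTCA. The matches found do not overlap one another.
Gxylt2: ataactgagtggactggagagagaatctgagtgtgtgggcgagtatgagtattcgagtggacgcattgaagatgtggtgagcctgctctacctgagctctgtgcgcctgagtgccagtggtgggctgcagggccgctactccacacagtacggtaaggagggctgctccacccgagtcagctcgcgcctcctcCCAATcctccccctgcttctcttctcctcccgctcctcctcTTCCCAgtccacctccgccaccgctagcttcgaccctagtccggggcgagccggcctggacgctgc
Plscr4: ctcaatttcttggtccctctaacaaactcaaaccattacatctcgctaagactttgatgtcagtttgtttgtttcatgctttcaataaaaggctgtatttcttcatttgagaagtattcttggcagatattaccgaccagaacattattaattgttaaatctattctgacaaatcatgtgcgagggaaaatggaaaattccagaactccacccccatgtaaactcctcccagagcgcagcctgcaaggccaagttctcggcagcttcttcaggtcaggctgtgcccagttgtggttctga
Armcx2: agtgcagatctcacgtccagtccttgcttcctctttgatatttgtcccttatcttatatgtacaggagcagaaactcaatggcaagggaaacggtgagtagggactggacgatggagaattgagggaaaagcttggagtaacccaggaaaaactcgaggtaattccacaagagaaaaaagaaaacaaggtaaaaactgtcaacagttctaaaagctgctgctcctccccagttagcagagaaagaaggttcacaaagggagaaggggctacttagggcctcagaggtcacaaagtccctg
Rgs7: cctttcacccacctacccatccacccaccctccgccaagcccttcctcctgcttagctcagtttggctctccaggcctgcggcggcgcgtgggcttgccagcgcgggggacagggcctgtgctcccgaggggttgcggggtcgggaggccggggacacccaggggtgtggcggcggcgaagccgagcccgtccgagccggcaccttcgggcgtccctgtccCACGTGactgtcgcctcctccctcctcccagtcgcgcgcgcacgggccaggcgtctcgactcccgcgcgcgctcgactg

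The promoters differed in base composition. Those of *Rgs7* and *Gxylt2* were rich in GC, at 73.3% and 62.0%, with 34 and 17 CpG dinucleotides. Those of *Armcx2* and *Plscr4* held 45.7% and 42.0% GC with 4 and 5 CpG dinucleotides, below the median of 52.7% and 7 over 32851 mouse promoters. The *Gxylt2* window held the CCAAT box beginning at -57 from the start site and the RBPJ core on the other strand at -16, motifs found in 37.4% and 25.6% of all promoters, and the *Rgs7* window held the E-box at -29, found in 7.15%. No motif was shared by 2 of the genes, the Sp1 box (35.7% of promoters), the TATA element (13.6%) and the AP-1 site (5.2%) were in none of the 4 windows, and the windows of *Plscr4* and *Armcx2* held none of the 6. A match is a string of letters and not a measured binding site.

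*Gxylt2* (chromosome 6, 100704734 to 100810913, plus strand, GRCm38) was higher on HFD in both genotypes. Its level in fl/fl mice was 10.7, 12.1 and 13.8 CPM (lowest, median and highest of 6) on chow and 12.2, 16.6 and 23.1 CPM on HFD. In AKO mice it was 8.08, 10.6 and 15.2 CPM on chow and 17.9, 21.1 and 22.7 CPM on HFD. Of the HFD-fed fl/fl mice 5 of 6 lay above all 6 chow-fed fl/fl mice, the exception being mouse 4 at 12.2 CPM, and the diets did not overlap in AKO mice. The 2 chow groups overlapped one another, as did the 2 HFD groups.

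In fl/fl mice the diet difference of *Gxylt2* was 0.51 on the log2 scale (95% interval 0.21 to 0.81), or 1.42-fold. Its edgeR p was 0.00198, with an adjusted p of 0.444 over all genes, and a two-sided exact permutation test of its 6 against 6 log2 CPM values gave p = 0.00866, where the smallest possible value is 0.00216. A p this low or lower was found for 67 genes, 0.446% of those tested. The difference did not pass the study's criteria for a differentially expressed gene (a change of 1.5-fold or more, an unadjusted p of 0.001 or less, and 2 CPM or more on average in whichever group is higher), which 26 genes or 0.173% passed, and after adjustment 0 genes passed 0.05 in edgeR, with 1354 genes (9.01%) at an unadjusted p under 0.05. Without fl/fl HFD mouse 4 the difference was 0.59, and with 19 libraries it was 0.70 (SE 0.145, edgeR adjusted p = 0.00202). Both pass the criteria, the latter in a fit in which 11.8% of genes passed. The paper removed outlier libraries before its limma-voom fit and reported far more than 26 genes between diets in fl/fl mice.

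**Figure D1:**
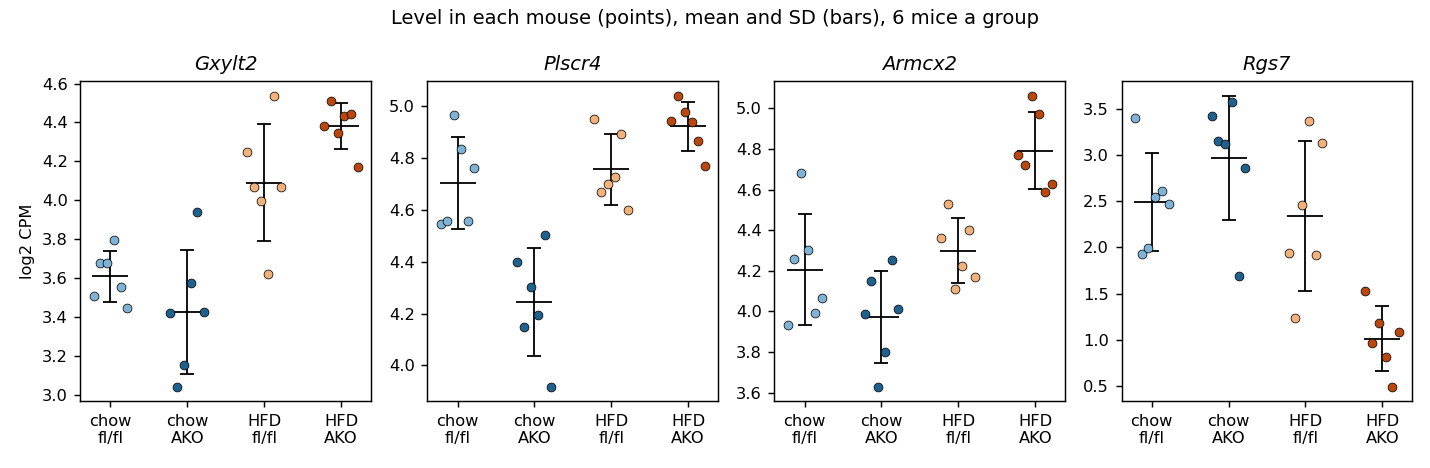
Level of each gene in each mouse (vertical axis, log2 CPM, a separate scale for each gene) in the 4 groups of 6 mice; points are mice, and bars are the mean and SD. *Gxylt2* is higher on HFD in both genotypes, chow-fed AKO mice stand lowest for *Plscr4*, and HFD-fed AKO mice stand highest for *Armcx2* and lowest for *Rgs7*.

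*Plscr4* (chromosome 9, 92457373 to 92492456, plus strand) was set apart by chow-fed AKO mice. Their levels were 15.0, 18.9 and 22.5 CPM, below every mouse of the other groups. The share of all genes with a group set apart from the others in this way was not counted. Levels were 23.2, 25.2 and 31.1 CPM in chow-fed fl/fl mice, 24.1, 26.1 and 30.7 CPM in HFD-fed fl/fl mice and 27.1, 30.6 and 32.8 CPM in HFD-fed AKO mice. These 3 groups overlapped one another. In fl/fl mice the diet difference was 0.05 (95% interval -0.17 to 0.27 on the log2 scale, edgeR p = 0.659, adjusted p = 0.913, exact permutation p = 0.565). That interval leaves out a change of 1.5-fold in either direction, and with 19 libraries the difference was 0.19 (edgeR adjusted p = 0.273).

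*Armcx2* (chromosome X, 134804145 to 134809221, minus strand) was set apart by HFD-fed AKO mice. Their levels of 23.9, 26.7 and 33.3 CPM lay above every HFD-fed fl/fl mouse (17.1, 19.5 and 23.0 CPM) and every chow-fed AKO mouse (12.2, 15.9 and 18.95 CPM). Chow-fed fl/fl mice had 15.2, 17.8 and 25.5 CPM, and the highest of these, mouse 3, lay within the HFD-fed AKO range. The diet difference in fl/fl mice was 0.08 (95% interval -0.20 to 0.36, edgeR p = 0.566, adjusted p = 0.888, exact permutation p = 0.483), and 0.32 with 19 libraries (edgeR adjusted p = 0.105).

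*Rgs7* (chromosome 1, 175059087 to 175492500, minus strand) was lowest in HFD-fed AKO mice, at 1.26, 1.89 and 2.74 CPM from 12 to 33 counts a library. It was 3.07, 8.63 and 11.7 CPM in chow-fed AKO mice, 3.67, 5.56 and 10.4 CPM in chow-fed fl/fl mice and 2.21, 4.51 and 10.2 CPM in HFD-fed fl/fl mice. HFD-fed AKO mice lay below both chow groups without overlap and overlapped HFD-fed fl/fl mice through 1 mouse, fl/fl HFD 2. The share of all genes whose HFD-fed AKO and chow-fed fl/fl mice do not overlap was not counted. The 3 highest HFD-fed fl/fl values (10.2, 8.62 and 5.34 CPM) were mice 4, 6 and 3, which are among the 5 libraries that stood apart, and the lowest chow-fed AKO value was mouse 5, another of them, with 18 counts.

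The diet difference of *Rgs7* in fl/fl mice was -0.06 (95% interval -0.75 to 0.64, edgeR p = 0.871, adjusted p = 0.971, exact permutation p = 0.660), an interval wide enough to hold a 1.5-fold change in either direction. Its value rested on which mice were included. With 19 libraries it was -0.97 (SE 0.305, edgeR adjusted p = 0.0236), which still missed the nominal p of the criteria, and leaving out fl/fl chow 1 turned it to 0.18.

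In AKO mice, the contrast that chose the genes, HFD against chow came to 0.95 (SE 0.147) for *Gxylt2*, 0.67 (SE 0.109) for *Plscr4*, 0.82 (SE 0.137) for *Armcx2* and -2.11 (SE 0.358) for *Rgs7* on the log2 scale, or 1.93-fold, 1.60-fold and 1.77-fold higher and 4.31-fold lower. All 4 met the study's criteria and had diet groups without overlap, as the choice would have it, against 4.12% and 6.86% of all genes. Leaving out any 1 library kept these differences between 0.88 and 1.05 for *Gxylt2*, 0.61 and 0.72 for *Plscr4*, 0.76 and 0.87 for *Armcx2*, and -2.28 and -1.99 for *Rgs7*. With 19 libraries they were 1.06, 0.73, 0.88 and -2.27 in that order.

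Genotype differences within each diet are described in the same way. On chow, AKO against fl/fl was -0.46 (SE 0.109) for *Plscr4*, whose groups did not overlap (0.26% of genes), -0.17 (SE 0.147) for *Gxylt2*, -0.25 (SE 0.136) for *Armcx2* and 0.52 (SE 0.335) for *Rgs7*. On HFD it was 0.50 (SE 0.136) for *Armcx2*, whose groups did not overlap (0.533% of genes), -1.53 (SE 0.355) for *Rgs7*, 0.27 (SE 0.145) for *Gxylt2* and 0.16 (SE 0.108) for *Plscr4*. The study's criteria were met by 0 of the 4 genes on chow (0.113% of genes) and by *Rgs7* on HFD (0.173% of genes). *Plscr4* shares chromosome 9 with *Zfp949* and *Cep162*, named after their values were seen. *Zfp949*, at -3.91 Mb from its start, differed between genotypes by 1.25 (SE 0.247) on chow and 1.07 (SE 0.248) on HFD. *Cep162*, at -5.27 Mb, differed by -0.15 (SE 0.214) and -0.98 (SE 0.217). The nearer *Plscr2* and *Plod2* were at 0.11 (SE 0.213) and -0.21 (SE 0.223) on chow. Whether a linked region enters the difference of *Plscr4* was not tested. The diet difference in AKO minus that in fl/fl was 0.44 (SE 0.206) for *Gxylt2*, 0.63 (SE 0.153) for *Plscr4*, 0.74 (SE 0.192) for *Armcx2* and -2.05 (SE 0.488) for *Rgs7*, and the last 3 met the criteria, which 0.386% of genes did, with all 24 libraries. These contrasts use the AKO libraries that chose the genes and carry no test. None of these calls held with 19 libraries. The HFD genotype difference of *Rgs7* was then -0.72 (SE 0.293), while those of *Gxylt2* and *Plscr4* were 0.09 and 0.08, and the interaction was 0.54 (1.45-fold) for *Plscr4*, 0.56 (1.48-fold) for *Armcx2* and -1.30 (SE 0.386) for *Rgs7*. The call of *Rgs7* on HFD was also lost without fl/fl HFD mouse 4 (-1.28). With 1 library left out, the interaction call of *Armcx2* was lost in 17 of 24 fits, holding without fl/fl chow 1, 5 or 6, AKO chow 2 or 5, or fl/fl HFD 1 or 2, and that of *Plscr4* in 10 of 24, without fl/fl chow 3 or 4, AKO chow 4 or 6, fl/fl HFD 3 or AKO HFD 1 to 5, whereas their values ranged from 0.63 to 0.80 and from 0.54 to 0.67.

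**Figure D2:**
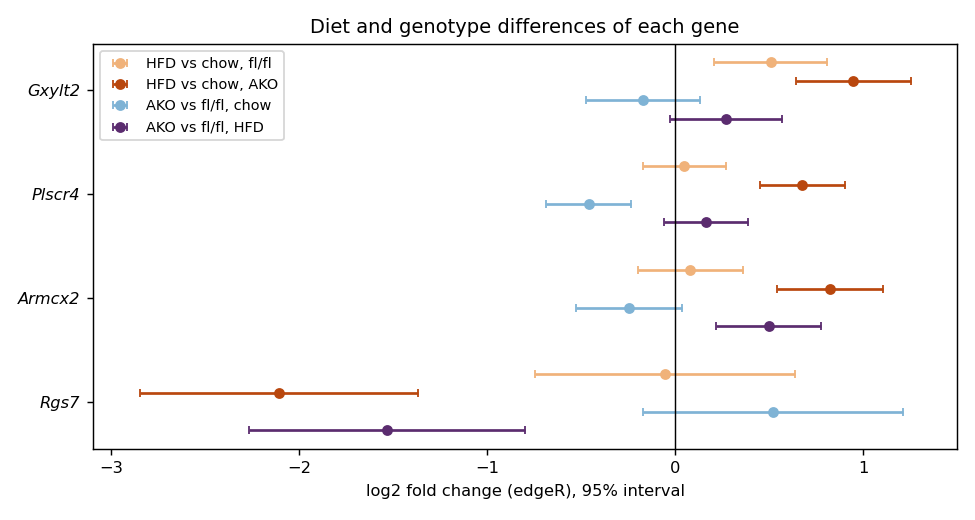
Diet and genotype differences of each gene (horizontal axis, log2 fold change from edgeR, with 95% intervals; 6 mice a group). In fl/fl mice the interval of *Gxylt2* (0.21 to 0.81) lies above 0 and those of the other 3 genes cross it; the AKO diet contrast chose the genes.

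Markers of several cell types differed in the AKO diet contrast, mast cell markers in the largest share. The summed level of 7 adipocyte markers was 7291 to 37662 CPM in chow-fed AKO mice and 4076 to 12724 CPM in HFD-fed AKO mice, that of 8 macrophage markers 2611 to 9674 and 8361 to 13837 CPM, that of 6 lipid-associated macrophage markers 507 to 6957 and 4161 to 12845 CPM, and that of 6 mast cell markers 37.8 to 425 and 598 to 1955 CPM. The mast cell sums did not overlap and 6 of 6 mast cell markers were higher at an adjusted p of at most 0.05, against 1 of 8 macrophage and 1 of 6 lipid-associated macrophage markers, while 4 of 7 adipocyte, 3 of 6 endothelial, 3 of 6 smooth muscle and pericyte and 2 of 6 mesothelial markers were lower. Over all genes 22.1% passed that threshold, so the macrophage and lipid-associated macrophage counts were no larger than the background. Of the adipocyte progenitor markers 1 of 7 and of the tested Schwann cell markers 1 of 4 were higher, near the same share, and 0 of 6 T cell and 0 of 4 B cell markers passed. Since 0 genes of the whole table passed the adjusted threshold in fl/fl mice, no marker could be among them. By the study's criteria the mast cell marker *Kit* was called there (1.15, SE 0.265, edgeR adjusted p = 0.293), and the median of the mast cell list was 1.69 in fl/fl and 3.30 in AKO mice. Less RNA per cell and fewer cells of a type cannot be told apart in whole tissue, and the part of these markers in the members' differences was not tested.

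Within groups, *Rgs7* varied with adipocyte markers and against macrophage and mast cell markers. After each group's mean was removed, over 24 libraries, Pearson's r of *Rgs7* with the mean log2 CPM of the adipocyte markers was 0.82 and Spearman's rho 0.88 (permutation p = 7.0e-05, adjusted p = 0.000880 over 44 pairs of a gene and a list). Adjusted p-values in this paragraph and the next are those of r unless rho is named. With lipid-associated macrophage markers r was -0.82 and rho -0.86 (permutation adjusted p = 0.000880). It was -0.81 with mast cell markers, -0.80 with macrophage, 0.78 with endothelial and 0.74 with smooth muscle and pericyte markers, with rho of -0.80, -0.79, 0.78 and 0.81 (permutation adjusted p of 0.00106, 0.000880, 0.000880 and 0.00352). T cell and B cell markers did not pass by r (-0.49 and -0.38, permutation adjusted p of 0.0756 and 0.129). By rho the T cell markers passed (-0.52, permutation adjusted p = 0.0459) and the B cell markers did not (-0.33, permutation adjusted p = 0.191). Without the 2 libraries farthest from the gene's median, r with the adipocyte and lipid-associated macrophage lists was 0.82 and -0.82. Here and below that median was taken over all 24 libraries before group means were removed. The 2 libraries left out need not be extreme within their group, so this check cannot show whether extreme mice carry a relation.

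*Gxylt2* ran in the opposite sense. Its r was -0.68 with endothelial and -0.65 with adipocyte markers and 0.64, 0.61 and 0.55 with mast cell, lipid-associated macrophage and macrophage markers (rho -0.72, -0.75, 0.62, 0.74 and 0.55; permutation adjusted p from 0.00541 to 0.0472), and -0.71, -0.67, 0.61, 0.61 and 0.54 without the 2 farthest libraries. *Armcx2* had an r of 0.54 with macrophage, -0.52 with adipocyte, 0.51 with mast cell and 0.47 with adipocyte progenitor markers (rho 0.47, -0.56, 0.51 and 0.51, with permutation adjusted p for r from 0.0262 to 0.0436). By r *Plscr4* passed with adipocyte progenitor markers alone (r = 0.50, rho 0.57, permutation adjusted p for r = 0.0336). By rho *Armcx2* did not pass with macrophage markers (permutation adjusted p = 0.0572) but passed with lipid-associated macrophage markers (permutation adjusted p = 0.0276). *Plscr4* passed by rho with B cell markers too (permutation adjusted p = 0.0495). In all 16 of 44 pairs passed by r. With 19 libraries 0 passed, the r of *Rgs7* with adipocyte and lipid-associated macrophage markers being 0.62 and -0.67, so the relations rest in part on libraries that stood apart. The first principal component itself had an r of -0.82 with *Rgs7*, 0.66 with *Gxylt2*, 0.63 with *Armcx2* and 0.40 with *Plscr4*.

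**Figure D3:**
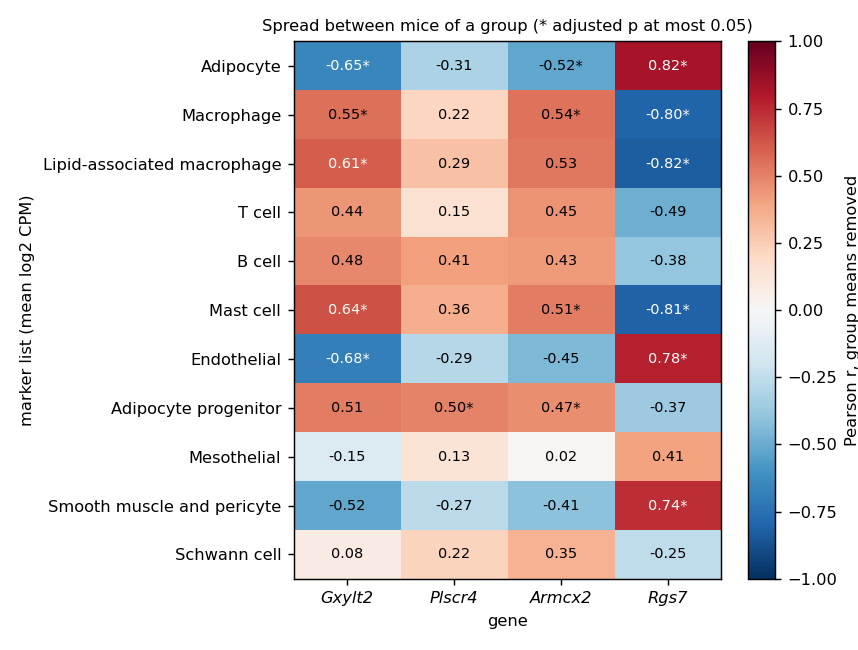
Pearson's r between each gene (columns) and the mean log2 CPM of each of 11 marker lists (rows) over 24 libraries with group means removed; colour gives r and an asterisk an adjusted permutation p of at most 0.05. *Rgs7* ranges from -0.82 with lipid-associated macrophage to 0.82 with adipocyte markers, while *Plscr4* passes with 1 list.

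Among the 6 pairs of the 4 genes, *Armcx2* and *Rgs7* had the only r that passed (-0.54, permutation p = 0.00786, adjusted p = 0.0472; rho -0.49, permutation adjusted p = 0.0547). Within groups it was -0.73 in chow-fed fl/fl, -0.63 in chow-fed AKO, -0.82 in HFD-fed fl/fl and 0.29 in HFD-fed AKO mice (n = 6 each), and it was -0.60 without the 2 farthest libraries and -0.25 with 19 libraries. *Gxylt2* had an r of -0.57 with *Rgs7*, 0.47 with *Plscr4* and 0.37 with *Armcx2* (rho -0.57, 0.50 and 0.45, with permutation adjusted p for r of 0.0591, 0.0726 and 0.0920). *Plscr4* had an r of 0.46 with *Armcx2* and -0.33 with *Rgs7* (rho 0.44 and -0.28, with permutation adjusted p for r of 0.0726 and 0.167).

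The genes whose spread within groups was most like that of each member, of 15019 compared over 24 libraries, were different for each. For *Rgs7* they were *C6*, a terminal complement component (r = 0.91), *Stk39*, a kinase of ion cotransporters (r = 0.91), and *Eda*, the ectodysplasin ligand (r = 0.90). The diet differences in AKO mice were -2.19 (SE 0.509) for *C6* and -1.48 (SE 0.297) for *Stk39*, both of which met the criteria, and -0.49 (SE 0.365) for *Eda*. For *Gxylt2* they were *Lama2*, another laminin alpha chain (r = 0.85), *P3h3*, a prolyl hydroxylase (r = 0.85), and *Dpysl2* (r = 0.81). Their diet differences in AKO mice were 0.80 (SE 0.166), which met the criteria, and 1.10 (SE 0.379) and 0.47 (SE 0.209), which did not. For *Armcx2* they were *Gmppa* (r = 0.87), the clathrin assembly gene *Picalm* (r = 0.85) and *Rpusd1* (r = 0.82), and for *Plscr4* *Nup35*, of the nuclear pore (r = 0.77), *Casd1* (r = 0.76) and *Zfp26* (r = 0.74). No gene named for *Armcx2* or *Plscr4* met the criteria in AKO mice, where 4.12% of all genes did. None of these 12 genes met the criteria in fl/fl mice. Each r is among the highest of 15019 and is high by that choice.

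The pathways around the 4 genes were followed through 90 tested genes on 12 lists. With all 24 libraries, 0 of the 90 genes met the study's criteria and 0 passed the adjusted threshold in fl/fl mice. In AKO mice 1 met the criteria (1.11%, against 4.12% of all genes) and 19 had an adjusted p of at most 0.05 (21.1%, against 22.1%). Counts on single lists below rest on few genes and are to be read beside that 22.1%. Genes below that were named only after their values were seen are those given for a count and those given as relatives of a member.

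Of 10 tested enzymes that glycosylate Notch, 2 were higher and 1 lower at an adjusted p of at most 0.05 in AKO mice. *Pofut1*, which adds O-fucose to the same repeats, rose by 0.46 (SE 0.110, edgeR adjusted p = 0.0159), and *Poglut1*, which adds the glucose that *Gxylt2* extends, by 0.37 (SE 0.119, edgeR adjusted p = 0.0342), whereas *Poglut3* changed by -0.88 (SE 0.258, edgeR adjusted p = 0.0262). *Gxylt1*, the other xylosyltransferase of this step, came to 0.15 (SE 0.123) in AKO and -0.08 (SE 0.122) in fl/fl mice, and the fringe enzyme *Mfng* to -0.42 (SE 0.289) and 0.31 (SE 0.288). The median of the list was 0.09 in AKO and 0.13 in fl/fl mice, against 0.00 and -0.01 over all genes.

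Among the Notch receptors, 1 of 4, *Notch2*, was higher in AKO mice (0.68, SE 0.203, edgeR adjusted p = 0.0275). *Notch3* came to 0.13 (SE 0.192) in AKO and 0.45 (SE 0.193) in fl/fl mice, and *Notch4* to -0.32 (SE 0.212) and 0.30 (SE 0.211). None of 4 tested ligands passed, *Dll4* being at -0.95 (SE 0.445) and *Dll1* at -0.94 (SE 0.602) in AKO mice. Of 12 genes of receptor cleavage and transcription 1, the gamma-secretase subunit *Aph1b*, was lower (-1.06, SE 0.292, edgeR adjusted p = 0.0225), while the transcription factor *Rbpj* was at 0.14 (SE 0.149) and the secretase subunit *Psenen* at 0.23 (SE 0.152). Of 4 tested target genes 1, *Nrarp*, was lower (-1.54, SE 0.454, edgeR adjusted p = 0.0263), with *Hes1* at -0.39 (SE 0.224) and *Heyl* at 0.53 (SE 0.239).

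Of 9 tested phospholipid scramblases other than *Plscr4*, *Plscr2* and *Xkr4* were lower in AKO mice and 0 were higher. *Plscr2*, which lies beside *Plscr4*, changed by -0.64 (SE 0.216, edgeR adjusted p = 0.0385), and *Xkr4*, measured at a mean of 0.592 CPM, by -2.66 (SE 0.854, edgeR adjusted p = 0.0331). *Plscr1* came to -0.20 (SE 0.294) and *Plscr3* to -0.15 (SE 0.0971), while *Xkr8*, a scramblase activated in dying cells, came to 0.27 (SE 0.157). Of 13 tested genes of phospholipid flippases, which move lipids in the inward direction, 2 were higher and 3 lower.

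None of 8 tested genes of the Armcx and Gprasp family besides *Armcx2* had an adjusted p of at most 0.05 in either genotype. In AKO mice 22.1% of all genes passed, and 0 of so few genes does not set the family apart. In fl/fl mice no gene of the whole table passed. In AKO mice *Armcx1* came to 0.12 (SE 0.174), *Armcx3* to 0.18 (SE 0.202), *Armcx4* to 0.22 (SE 0.205), *Armcx5* to -0.30 (SE 0.253) and *Armcx6* to -0.20 (SE 0.342). Of 8 genes that carry mitochondria along microtubules or shape them, 2 were lower in AKO mice, the kinesins *Kif5b* (-0.80, SE 0.250, edgeR adjusted p = 0.0304) and *Kif1b* (-0.79, SE 0.263, edgeR adjusted p = 0.0365), and the adaptor *Trak1* was at 0.20 (SE 0.138).

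Of the R7 complex 4 of 8 genes besides *Rgs7* were in the table and 1, *Rgs7bp*, could be tested. *Rgs7bp* was lower in AKO mice (-1.44, SE 0.501, edgeR adjusted p = 0.0427) and at 0.18 (SE 0.487) in fl/fl mice, values to be set beside -2.11 and -0.06 for *Rgs7*, and its r with *Rgs7* within groups was 0.79, at place 387 of 15019 genes. Of 12 other RGS genes *Rgs19* was higher (0.84, SE 0.274, edgeR adjusted p = 0.0355) and the pericyte marker *Rgs5* lower (-1.23, SE 0.354, edgeR adjusted p = 0.0247) in AKO mice, with *Rgs3* at -0.13 (SE 0.187) and *Rgs14* at 1.01 (SE 0.486). Of 5 Gi and Go alpha subunits, the substrates of RGS proteins, *Gnai1* was lower (-1.64, SE 0.509, edgeR adjusted p = 0.0303), while *Gnai3* was at 0.36 (SE 0.192) and *Gnaz* at 0.74 (SE 0.322).

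With all 24 libraries, no tested neighbour of *Gxylt2*, *Plscr4* or *Armcx2* met the criteria. Within 500000 bases of their starts lay 4 tested genes for *Gxylt2*, 3 for *Plscr4* and 12 for *Armcx2*, of which 0 met the criteria between diets in either genotype. The nearest on each side were *Shq1* (0.37, SE 0.204 in AKO mice) and *Ppp4r2* (0.18, SE 0.119) for *Gxylt2*, *Plscr2* (above) and *Plod2* (0.24, SE 0.223) for *Plscr4*, and *Armcx3* (above) and *Nxf2* (-0.85, SE 0.515) for *Armcx2*. *Gla*, farther off in the window of *Armcx2*, was as far from 0 as *Armcx2* itself with a wider error (0.84, SE 0.433, edgeR adjusted p = 0.149). *Rybp*, near the edge of the window of *Gxylt2* and, like *Gla*, named after its value was seen, was fitted at -5.34 (SE 1.06, edgeR adjusted p = 0.0124) in AKO mice. It averaged 0.849 CPM, under the level the criteria ask for, and a fitted value this low in counts depends on the prior count.

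**Figure D4:**
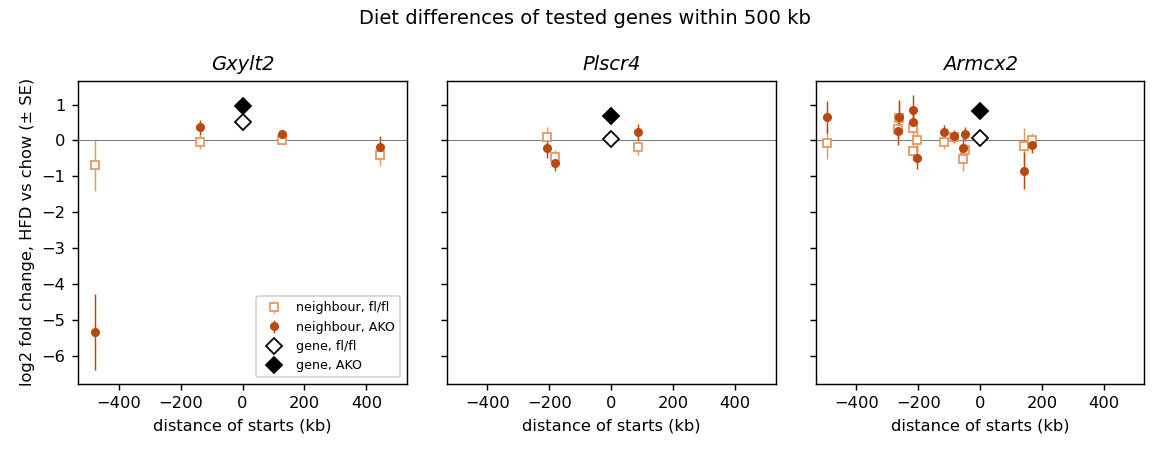
HFD against chow (vertical axis, log2 fold change ± SE) for *Gxylt2*, *Plscr4* and *Armcx2* at 0 and the tested genes within 500 kb, by distance between starts (horizontal axis, kb); open symbols are fl/fl and filled symbols AKO mice. The members' filled diamonds are at 0.95, 0.67 and 0.82. No neighbour met the criteria with all 24 libraries, and the far point beside *Gxylt2* is *Rybp* at -5.34.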

How the data were processed

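RNA of eWAT from 24 mice was made into 3′ QuantSeq libraries. Per the study's methods the authors mapped reads and made count tables with the Lexogen QuantSeq pipeline on the Bluebee platform, with Rsubread also named, and the deposited counts are whole-number raw counts per gene on GRCm38. Strand setting and the treatment of reads shared between gene family members are not given in the sources used here. A second deposited table holds the signal of each gene after the authors divided each library by 1 DESeq2 size factor (R 4.0.3 and DESeq2 1.30 in the submitters' processing notes), and served here for symbols and coordinates only. Rows with under 72 counts in all were absent.

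Genes reaching 1 CPM in 3 or more libraries were fitted in edgeR 4.0.16 (R 4.3.3) with TMM factors and the quasi-likelihood test, 1 coefficient per group over all 24 libraries, and p-values were adjusted by Benjamini-Hochberg over 15020 genes. The study used limma-voom, which was run as an alternative beside DESeq2, RLE factors, other filters, a fit of only the compared groups, a replicate block, the 19 libraries and each library left out. Log2 CPM used a prior count of 2. Correlations removed group means and permuted libraries within groups 100000 times (scipy 1.17.1, numpy 2.4.6). The scripts were tested on simulated data. Replicates are separate mice and their pairwise correlations within groups were 0.875 to 0.980. Depth was 5579590 to 18764516 counts a library and limits precision most for *Rgs7*.

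The 4 genes, the 12 pathway lists and the 12 marker lists were chosen with earlier results of these data known. Genes were named if they were members, if called on a pathway list or otherwise among the 2 lowest p in fl/fl mice of that list, if among the 3 most like a member, or if nearest to one or called within 500000 bases. Gene positions are from the deposited table and GENCODE (GRCm38), and promoters from RefSeq. Some genes that this rule names are not reported here.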

Additional observations from a re-analysis of the deposited data

How the results depend on the processing

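Under RLE factors, no filter, another filter, DESeq2, limma-voom and a fit of the 2 groups alone, the diet difference of *Gxylt2* in fl/fl mice was 0.49 to 0.54 and did not meet the criteria. It met them without the 5 libraries that stood apart (0.70) and without fl/fl HFD 4 (0.59), within a range of 0.42 to 0.59 when 1 library was left out. With 1 library left out, that of *Rgs7* in fl/fl mice ranged from -0.31 to 0.18. It turned positive without fl/fl chow 1 (0.18), fl/fl HFD 1 (0.04), HFD 2 (0.11) and HFD 5 (0.05). Without the 5 libraries it was -0.97 (SE 0.305) and did not meet the criteria. The cause was not tested. In AKO mice the 4 differences kept their direction in every fit. Their calls also held in every fit. The interaction call of *Armcx2* was lost in 21 of 31 alternatives and that of *Plscr4* in 11, and *Rgs7* lost its interaction call in 2 (limma-voom, and -1.30 without the 5 libraries) and its HFD genotype call in 3 (limma-voom, without fl/fl HFD 4, and -0.72 without the 5 libraries).

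Genes meeting the criteria in fl/fl mice (26) numbered 60 in DESeq2, 11 with 2 groups, 1750 without the 5 libraries, 0 at an adjusted p of at most 0.05, and 14 (without HFD 1) to 63 (without chow 1) with 1 library left out. In AKO mice (619) they numbered 1315, 1388, 2332 and 3315, and 299 (without chow 3) to 1169 (without chow 5). Of the pathway lists 7 genes in DESeq2, 2 in limma-voom, 11 with 2 groups, 14 without the 5 libraries and 1 to 4 with 1 library left out met them in AKO mice, and 15 in fl/fl mice without the 5 libraries, where 1 neighbour did so in each genotype. Without the 5 libraries, 15.7% of all genes met the criteria in AKO mice and 11.8% in fl/fl mice. Of the pairs of members 0 passed by Spearman's rho, 0 without the 5 libraries and 0 to 4 with 1 library left out, and of the pairs with marker lists 0 without the 5 libraries and 8 (without AKO chow 5) to 25 (without AKO chow 6). Of the single correlations over all alternatives 1254 kept their side of the threshold, 100 no longer passed and 46 newly passed. A prior count of 0.5 moved neither count by over 1.5 times.

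The replicate numbers did not pair the samples: the correlation of deviations ran from -0.534 to 0.714 over 36 pairs with the same number (median 0.0011). With the replicate block the difference of *Gxylt2* in fl/fl mice was 0.49, 19 and 457 genes met the criteria, and the interaction of *Armcx2* (0.73, SE 0.210) no longer did, while no other call of a member changed. Depth limits *Rgs7* most, at 12 counts in its lowest library.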
